A study of Mus musculus with 3 samples.

Results

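The 7 genes described here carry the interferon signal from the cell surface to the nucleus. They are the type I interferon receptor chains Ifnar1 and Ifnar2, the transducer Stat2, and the interferon regulatory factors Irf1, Irf7, Irf8 and Irf9. They were chosen by gene symbol from a fixed list, with earlier results of these data known. Shares over all genes given beside the members and lists are therefore descriptions and no test of them. Each of the 7 was measured by exactly 1 named probe set, out of 19505 genes on the array. All 7 passed the filter on low values, a mean log2 level of at least 5.02, as did 10940 genes in all.

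Mouse CD8 T cells were the source of the RNA. They had received CD3 and CD28 stimulation and were kept in Tc1 cytokines, a culture that drives CD8 T cells toward cytotoxic effectors. The control received no added cholesterol, and the other cultures received 0.5 or 0.75 µg/ml cholesterol. The labels give no strain, age or number of animals, no length of treatment and no carrier for the cholesterol, so an effect of a carrier and an effect of cholesterol cannot be told apart. Each condition was 1 array, so no test was possible, no difference below has a replicate check, and precision is limited by how few arrays there are.

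Type I interferons bind a receptor made of IFNAR1 and IFNAR2, whose bound kinases TYK2 and JAK1 then phosphorylate STAT proteins. STAT2, a STAT partner and IRF9 form the complex ISGF3, which binds interferon-stimulated response elements (ISREs) in the promoters of antiviral genes. IRF7 and IRF9 are themselves made in larger amounts after interferon, which closes a positive feedback loop. Interferon-gamma, the main cytokine of Tc1 cells, signals through a separate receptor and acts on gamma-activated sites (GAS), as in the promoter of Irf1, and IRF1 in turn drives antigen presentation genes. IRF8 is best known from myeloid and B cells and is also induced in activated CD8 T cells.

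The promoters of the members with the largest differences, and of Irf8, are shown because these genes are classical targets of the same pathway. RefSeq start sites on the build GRCm38.p6 were found for 7 of 7 members. Each sequence is the stretch upstream of the annotated gene, 5′ to 3′ on the gene's strand, and capitals mark a match to the ISRE letters (GAAA repeated after any 2 bases) or to the GAS letters TTCNNNGAA, both searched on both strands in windows of 300 bases around each start site.
Stat2 (chr10:128270248-128270497, plus strand): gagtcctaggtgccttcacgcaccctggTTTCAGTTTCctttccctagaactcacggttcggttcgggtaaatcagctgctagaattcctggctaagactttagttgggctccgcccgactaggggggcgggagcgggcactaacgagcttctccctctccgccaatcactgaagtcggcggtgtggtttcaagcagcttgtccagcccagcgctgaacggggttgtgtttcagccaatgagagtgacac
Irf1 (chr11:53769764-53770013, plus strand): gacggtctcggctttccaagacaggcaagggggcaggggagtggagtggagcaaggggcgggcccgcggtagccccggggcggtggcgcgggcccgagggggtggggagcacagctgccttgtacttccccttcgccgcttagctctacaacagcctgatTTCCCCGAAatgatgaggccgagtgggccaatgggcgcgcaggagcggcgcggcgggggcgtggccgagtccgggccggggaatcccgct
Irf7 (chr7:141266500-141266674, minus strand): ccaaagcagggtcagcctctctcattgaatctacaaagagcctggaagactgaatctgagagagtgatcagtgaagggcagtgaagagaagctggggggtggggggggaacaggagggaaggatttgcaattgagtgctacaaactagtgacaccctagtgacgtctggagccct
Irf8 (chr8:120736108-120736357, plus strand): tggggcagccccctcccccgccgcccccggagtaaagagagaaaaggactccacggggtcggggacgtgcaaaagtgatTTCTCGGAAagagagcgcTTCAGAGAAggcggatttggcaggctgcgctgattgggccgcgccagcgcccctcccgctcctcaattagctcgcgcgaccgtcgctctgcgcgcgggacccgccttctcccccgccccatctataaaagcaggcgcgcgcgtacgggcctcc
The Stat2 window held 1 ISRE match, TTTCAGTTTC, which has the letters on its opposite strand, 222 to 213 bases before the start site. The Irf1 window held 1 GAS match, TTCCCCGAA, at 90 to 82 bases before the start. The Irf8 window held GAS matches at 171 to 163 and at 153 to 145 bases before the start. The Irf7 window, of which the part shown lies outside the annotated gene, held neither set of letters. The windows of Irf9 held neither as well.

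Among the 7 members, 1 gene had an ISRE match and 4 had a GAS match, the others with GAS being Ifnar1 and Ifnar2. Of 15691 measured genes with a promoter in the table, 3.94% had an ISRE match and 9.02% a GAS match. A sterol response element, searched as TCACNCCAC on both strands, was matched in 0 of the 7 and in 1.43% of the measured genes. These matches describe letters in a window and are not shown to be bound sites.

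The receptor chain Ifnar1 had an intensity of 378 without cholesterol, 343 with 0.5 µg/ml and 323 with 0.75 µg/ml. Its partner Ifnar2 was at 540 without cholesterol, 585 at the lower dose and 426 at the higher. At the higher dose Ifnar1 was at 85.5% and Ifnar2 at 78.8% of the control level, and Ifnar2 was the 1 member that was brighter at 0.5 µg/ml than in the control.

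Stat2, the STAT protein particular to the ISGF3 complex, was at 867 without cholesterol, 581 at the lower dose and 289 at the higher. Irf9, the DNA-binding subunit of that complex, was at 326, 281 and 218 in the same order. Both ISGF3 genes were lower at each step of the dose, and Stat2 was at 33.4% of its control level at the higher dose.

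Irf7, the factor that amplifies type I interferon production, was at 507 without cholesterol, 416 at the lower dose and 95.7 at the higher. The last value lies under 102, which is used here as the background level: on the array where they were brightest, 95% of the negative-control probe sets lay under it. The other 6 members were above that level on all 3 arrays.

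Irf1, which drives interferon-gamma responses and antigen presentation, was at 1388 without cholesterol, 997 at the lower dose and 856 at the higher. Irf8 was at 461, 431 and 385. For 6 of the 7 members the order from high to low was control, 0.5 and 0.75 µg/ml, an order that 19.8% of genes past the filter also had.

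**Figure D1:**
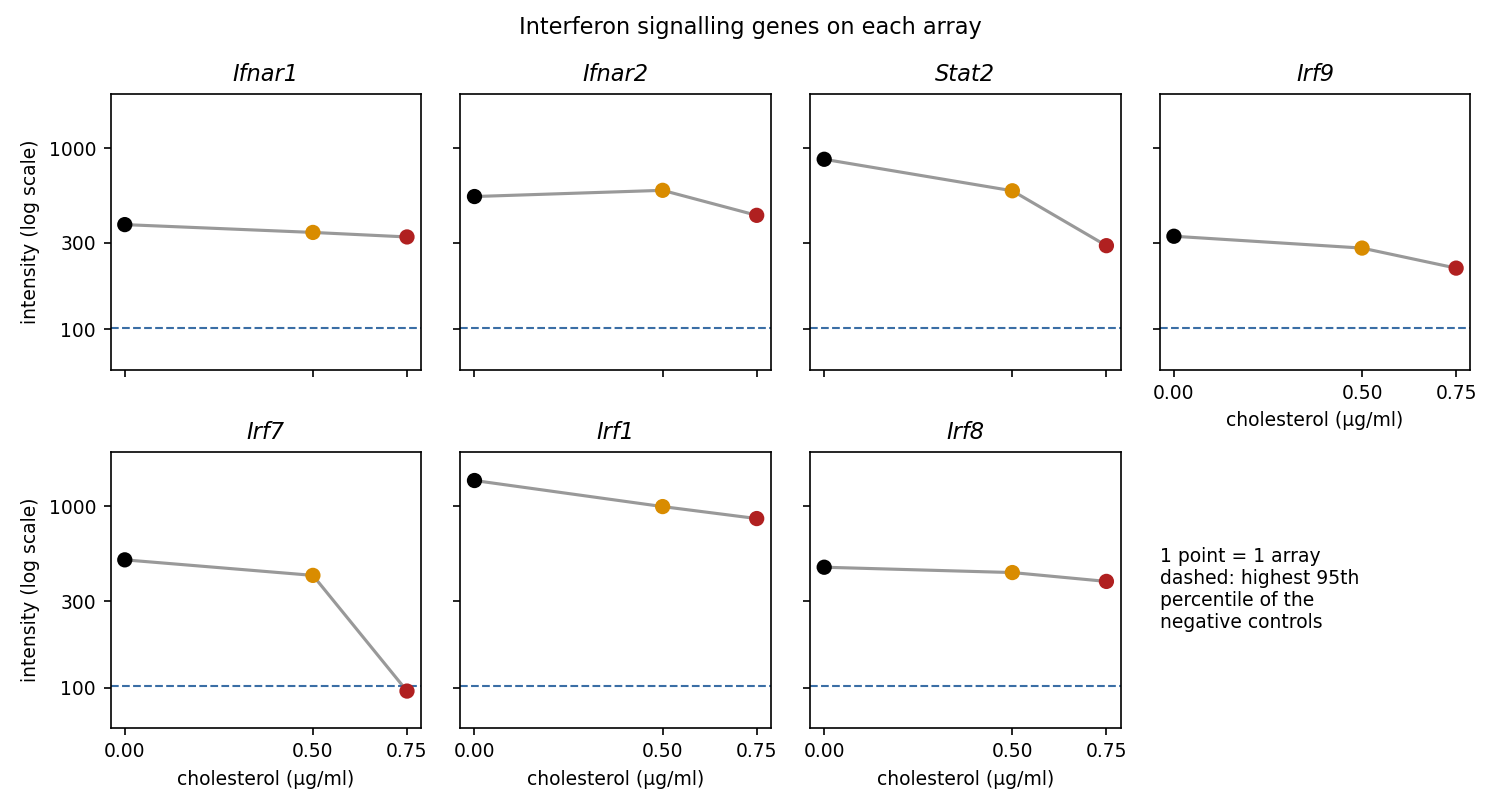
Intensity of each member (log scale) against cholesterol in µg/ml, with 1 point per array and a dashed line at the background level of 102. Irf7 stays near 507 and 416 and then lies at 95.7 at 0.75 µg/ml, Stat2 goes from 867 to 289, and the receptor genes Ifnar1 and Ifnar2 stay between 323 and 585.

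The first comparison set 0.5 µg/ml cholesterol against the control. Stat2 and Irf1 were the lowest members, with log2 differences of -0.58 and -0.48, or 1.49-fold and 1.39-fold lower. Irf7 differed by -0.28, Irf9 by -0.22, Ifnar1 by -0.14, Irf8 by -0.10 and Ifnar2 by 0.11. No member was at least 2-fold lower, a size that 0.0548% of the genes past the filter reached at this dose, and none was at least 2-fold higher, as 0.0914% of genes were. By sign alone 6 of 7 were lower, against 44.5% of the genes past the filter.

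Because no replicate exists, the spread between the arrays was read from other probe sets. Among 1165 positive-control probe sets that passed the filter, the SD of the log2 difference between these arrays was 0.30, and 2 members, Stat2 and Irf1, differed by more than that. Of the 1201 genes within 0.5 log2 units of Stat2 in the control, 5 differed by as much or more in the lower direction, and of the 710 genes so close to Irf1, 7 did. For Irf7 it was 85 of 1910 genes, or 4.45%, and for Ifnar2 it was 1451 of 1823. The SD over all genes past the filter was smaller, 0.21, and Irf7 and Irf9 differed by more than that too.

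The second comparison set 0.75 µg/ml cholesterol against the control. All 7 members were lower, and Irf7 and Stat2 were the members at least 2-fold lower. That is 2 of 7, where 1.57% of the genes past the filter were at least 2-fold lower, and 47.7% were lower by any amount. The members were chosen with earlier results of these data known, so these shares are no test of them. At least 2-fold higher were 0 of 7 and 0.356% of genes. The median of the 7 log2 differences was -0.58, against 0.00 over the genes past the filter.

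The listed intensities of Irf7 differ by -2.40 on the log2 scale, but the one at 0.75 µg/ml is under the background level, so its size is given as at least 4.98-fold lower, a log2 difference of -2.32 with the dim value raised. Stat2, above the background level on each array, differed by -1.58. Of the 1201 genes within 0.5 log2 units of Stat2 in the control, 11 were as low.

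The other factors differed by less. Irf1 differed by -0.70 and Irf9 by -0.58, which leaves them at 61.7% and 66.7% of their control levels. Among genes of like control intensity, 4.23% were as low as Irf1 and 4.83% as low as Irf9. Ifnar2 differed by -0.34, Irf8 by -0.26 and Ifnar1 by -0.23, and 11.3%, 16.2% and 18.3% of genes of like intensity were as low. The positive controls had an SD of 0.31 between these arrays, so Irf8 and Ifnar1 differed by less than that SD and Ifnar2 by little more. Over all genes past the filter the SD was 0.36, and 4 members, Stat2, Irf1, Irf7 and Irf9, differed by more.

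**Figure D2:**
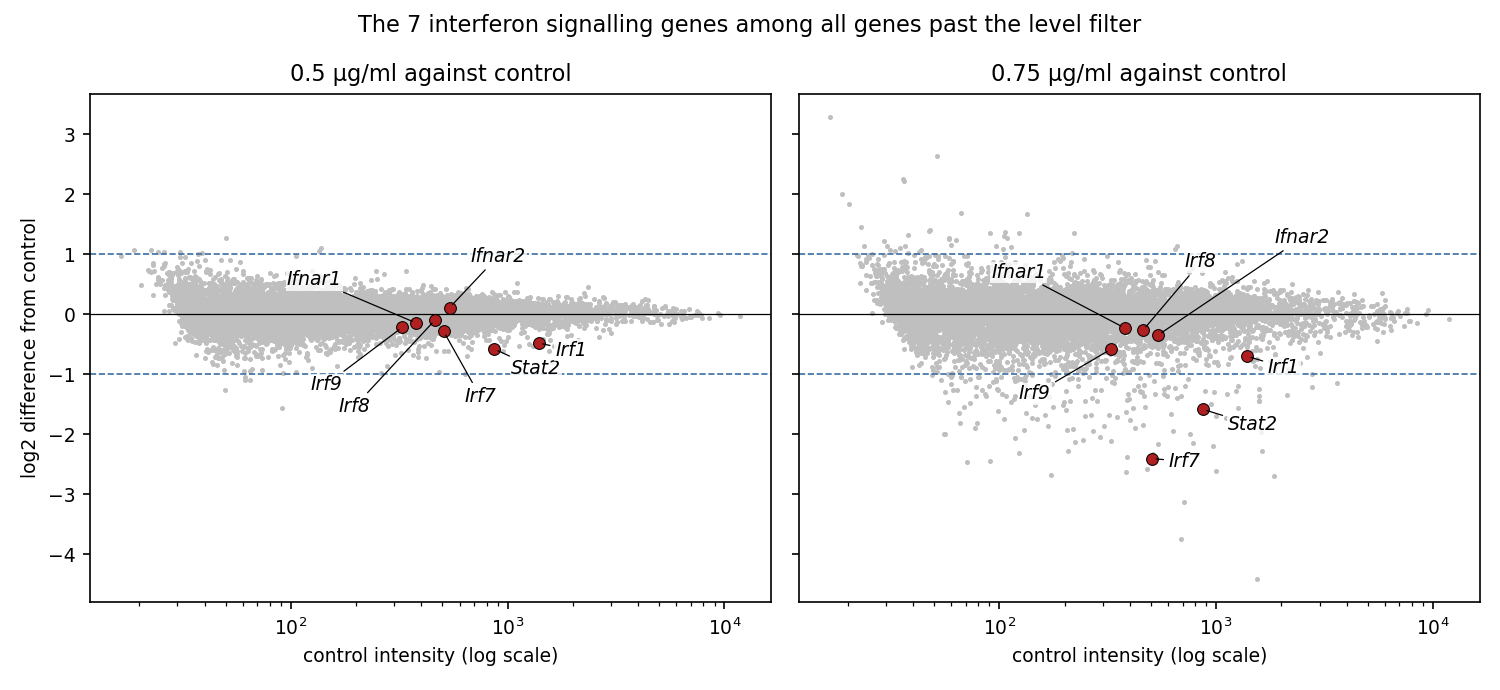
Log2 difference from the control against control intensity (log scale) for the genes past the level filter (grey) and the 7 members (red), at 0.5 µg/ml (left) and 0.75 µg/ml (right), with dashed lines at a 2-fold difference. Stat2 (-0.58) and Irf1 (-0.48) lie at the lower edge of the cloud at 0.5 µg/ml, and Irf7 (drawn at -2.40, from a value under the background level) and Stat2 (-1.58) lie below the 2-fold line at 0.75 µg/ml.

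The third comparison set 0.75 against 0.5 µg/ml. Irf7 was at least 4.09-fold lower over the background level, and Stat2 differed by -1.01, or 2.01-fold lower. These were the 2 of 7 members at least 2-fold lower, where 1.19% of the genes past the filter were. Stat2 sits on that threshold, and after quantile normalization of the arrays its difference was -0.99, which leaves 1 member past it. Ifnar2 differed by -0.46, Irf9 by -0.37, Irf1 by -0.22, Irf8 by -0.16 and Ifnar1 by -0.08. All 7 were lower at the higher dose, as were 51.1% of the genes past the filter, and 4 members, Irf7, Stat2, Ifnar2 and Irf9, differed by more than the positive controls' SD of 0.30 and the SD of 0.32 over genes past the filter.

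The members also differed among themselves in where along the dose the difference lay. On the log2 scale, the difference of Irf1 at 0.5 µg/ml was 68.5% of its difference at 0.75 µg/ml. The same share was 36.5% for Stat2 and 37.1% for Irf9, and for Irf7 none is given because its value at the higher dose is under the background level. Both differences share the control array, and with 1 array per dose these shares have no error.

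Genes whose pattern was most like each member were sought among 7513 named genes above the background level in the control, by the distance between the pairs of log2 differences from the control over the 3 arrays. Nearest to Irf7 were Ifi27l2a (0.19 log2 units away), Selp (0.22) and Fdps (0.26). Irf7, and Fdps at 62.1, were under the background level at 0.75 µg/ml, so these distances are not exact. Within 0.25 log2 units of Stat2 lay 14 genes, with Tg (0.05), Kit (0.07) and Nsdhl (0.08) the closest, of which Kit was under the background level at both doses, at 88.3 and 42.4. Irf1 had 101 genes within 0.25, led by Kif3c, Smpd2 and Furin. Around Irf9 there were 458 genes, led by Slc35g1, Grasp and Siah2. Ifnar2 had 1027 genes, led by Rrm2b, Trim12c and Dennd4c. Irf8 had 2286 genes, led by Stat6, Dnajc14 and Mtmr3, and Ifnar1 2333, led by Aga, Fam126b and Zbtb48.

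Ifnar1 and Ifnar2 stand in a run of neighbouring receptor genes on chromosome 16, in the order Ifnar2, Il10rb, Ifnar1 and Ifngr2. Il10rb, a chain shared by interleukin-10 and interferon-lambda receptors, was at 790.1, 817 and 654 from control to the higher dose. Ifngr2, the signalling chain of the interferon-gamma receptor, was at 387, 252 and 144. Its log2 differences from the control were -0.62 and -1.42, the latter 2.68-fold lower. Of these 4 genes, Ifngr2 was the 1 at least 2-fold lower at 0.75 µg/ml, and the type I chains beside it differed by -0.23 and -0.34.

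**Figure D3:**
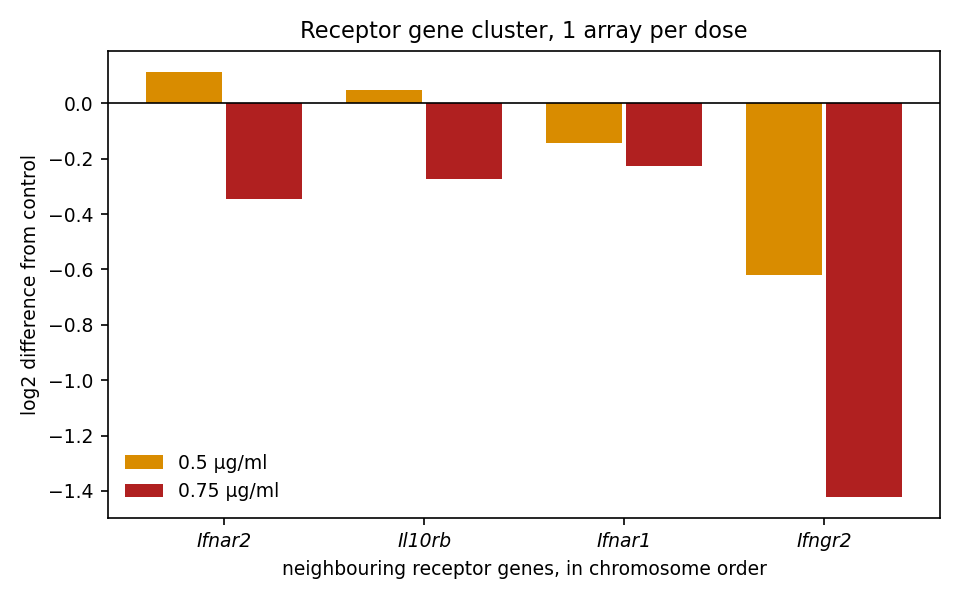
Log2 difference from the control (bars from 0) for the neighbouring receptor genes Ifnar2, Il10rb, Ifnar1 and Ifngr2 in chromosome order, at 0.5 and 0.75 µg/ml, with 1 array per dose and no error bars. Ifngr2 lies at -0.62 and -1.42, while the other 3 lie between -0.34 and 0.11.

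The ligand-binding chain of the same interferon-gamma receptor, Ifngr1, was at 1394, 1509 and 978, a difference of -0.51 at 0.75 µg/ml. The receptor-bound kinase gene Jak1 was at 537, 540.4 and 538, and Tyk2 at 453, 448 and 405. Jak2, which serves the interferon-gamma receptor, was at 707, 578 and 564. Of the 7 measured genes of other receptor chains and kinases, 1, Ifngr2, was at least 2-fold lower at 0.75 µg/ml and 0 were at 0.5 µg/ml. Of the genes past the filter, 1.57% and 0.0548% were. The median log2 differences of the 7 from low to high dose were -0.02 and -0.27, where those of the genes past the filter were 0.01 and 0.00.

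Ligand genes were mostly dim. Of 11 measured interferon genes, 2 were above the background level in the control, Ifna5, at 106, 83.3 and 92.0, and Ifng, at 333, 346 and 294. None was at least 2-fold lower or higher at either dose, and at 0.75 µg/ml 1.57% and 0.356% of the genes past the filter were. The 9 others, Ifnb1 among them, were under the background level on all arrays.

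Other members of the same factor families differed by less than 2-fold. Of 5 other measured STAT genes and 4 other measured IRF genes, 0 were at least 2-fold lower or higher at either dose. Few genes past the filter were: 0.0548% lower and 0.0914% higher at 0.5 µg/ml, and 1.57% and 0.356% at 0.75 µg/ml. With so few genes in these lists, 0 is near those shares. Of the 4 IRF genes, 3 were above the background level on at least 1 array. Stat3 was at 1154, 929 and 790, Stat4 at 524, 560.4 and 406, Stat6 at 1404, 1308 and 1174, and Stat5b at 300.3, 320.1 and 323. Irf3, the factor activated directly downstream of nucleic acid sensors, was at 249, 238 and 250.5. Irf4, which is induced by T cell receptor signalling, was at 818, 777 and 1046, a difference of 0.36 at 0.75 µg/ml, and Irf2, an antagonist of IRF1, was at 529, 485 and 383. Irf7 and Stat2 were thus the STAT and IRF genes measured here that passed 2-fold.

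Nucleic acid sensing genes split. Of 14 measured, 9 were lower and 5 higher at 0.75 µg/ml, 3 were at least 2-fold lower and 0 were at least 2-fold higher. The level filter was passed by 12 of the 14. Over all genes past it, 47.7% were lower, 1.57% at least 2-fold lower and 0.356% at least 2-fold higher. The cytosolic RNA sensor genes Dhx58, at 291, 226 and 70.8, and Ifih1, at 463, 430.4 and 206, were among the 3, with the endosomal RNA receptor Tlr7, at 247, 253 and 91.4. Dhx58 was at least 2.86-fold and Tlr7 at least 2.43-fold lower over the background level. Zbp1, another nucleic acid sensor, was at 384, 344 and 199. Among the 5 higher was Sting1, the adaptor of cytosolic DNA sensing, at 1108, 1156 and 1393, which was named after its values were seen. The median of the 14 was 0.03 at 0.5 µg/ml and -0.19 at 0.75 µg/ml.

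Of 15 negative regulators, 1 was at least 2-fold lower at 0.75 µg/ml, where 1.57% of the genes past the filter were. The 1 regulator was Usp18, which binds IFNAR2 and blocks type I receptor signalling, at 421, 428 and 113, a log2 difference of -1.89. The others with the largest differences were Socs2, at 1181, 1380 and 1728, Socs3, at 158, 144 and 110, and Irf2bp2, at 443, 359 and 344. Socs1, the main feedback inhibitor of interferon-gamma signalling, was at 1633, 1462 and 1524. The list median was -0.06 at 0.5 µg/ml and -0.10 at 0.75 µg/ml.

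Target genes were taken as a list of type I (ISGF3) targets and a list of interferon-gamma and IRF1 targets, neither of which holds a gene of the other. Of 48 measured ISGF3 targets, 31 were lower at 0.5 µg/ml and 43 at 0.75 µg/ml, with median log2 differences of -0.09 and -0.76. At least 2-fold higher were 0 at either dose, and at least 2-fold lower were 0 at the lower and 16 at the higher dose, or 9 at the higher dose with values under the background level raised to it. Some of the 16 were under the background level on all 3 arrays. Of the 36 targets with at least 1 array above it, 12 were at least 2-fold lower at the higher dose. With dim values raised to the background level the medians of the 48 were 0.00 and -0.47. Over the genes past the filter, which 42 of the 48 passed, 44.5% and 47.7% were lower at these doses. At least 2-fold lower were 0.0548% at the lower and 1.57% at the higher dose, or 0.896% at the higher dose with dim values raised. The list was chosen with earlier results of these data known, so these shares are no test of it.

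The antiviral genes Ifit3b, at 174, 155 and 27.1, and Ifit3, at 242, 214 and 56.4, are close in sequence, so their values may not be independent. Ifi27l2a was at 813, 758 and 160, and the apoptosis factor gene Xaf1 at 402, 365 and 119. All of these kept near the control at 0.5 µg/ml, between -0.18 and -0.10 on the log2 scale. At 0.75 µg/ml Ifi27l2a was 5.07-fold lower and Xaf1 3.37-fold lower.

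Not every ISGF3 target was lower. The membrane antiviral genes Ifitm1, at 247, 409 and 465, Ifitm2, at 1246, 1508 and 1836, and Ifitm3, at 195, 276 and 387, were brighter at both doses than in the control. These 3 were named after their values were seen. Their log2 differences at 0.75 µg/ml were 0.91, 0.56 and 0.99.

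Of 28 measured interferon-gamma and IRF1 targets, 26 were lower at 0.5 µg/ml and 23 at 0.75 µg/ml, with medians of -0.17 and -0.36, and 1 was at least 2-fold lower at the higher dose. That 1 was the chemokine gene Cxcl10, at 105, 85.6 and 31.3, at least 1.03-fold lower over the background level, so with dim values raised 0 of the 28 were at least 2-fold lower. The shares over the genes past the filter were those given above, 44.5% and 47.7% lower and 1.57% at least 2-fold lower at the higher dose. The guanylate-binding protein genes Gbp2, at 1870, 1462 and 1014, and Gbp7, at 1863, 1875 and 1163, and the related GTPase gene Iigp1, at 361, 287 and 234, had the next largest differences. The nearest chromosomal neighbours of Irf9 on one side, Rnf31 and the proteasome activator gene Psme2, differed by -0.41 and -0.39 at 0.75 µg/ml. Emc9, next on that side, differed by -0.10. On the other side Rec8, which was under the background level, Ipo4 and Tm9sf1 were higher, by 0.30, 0.24 and 0.06. All of these neighbours were named after their values were seen.

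**Figure D4:**
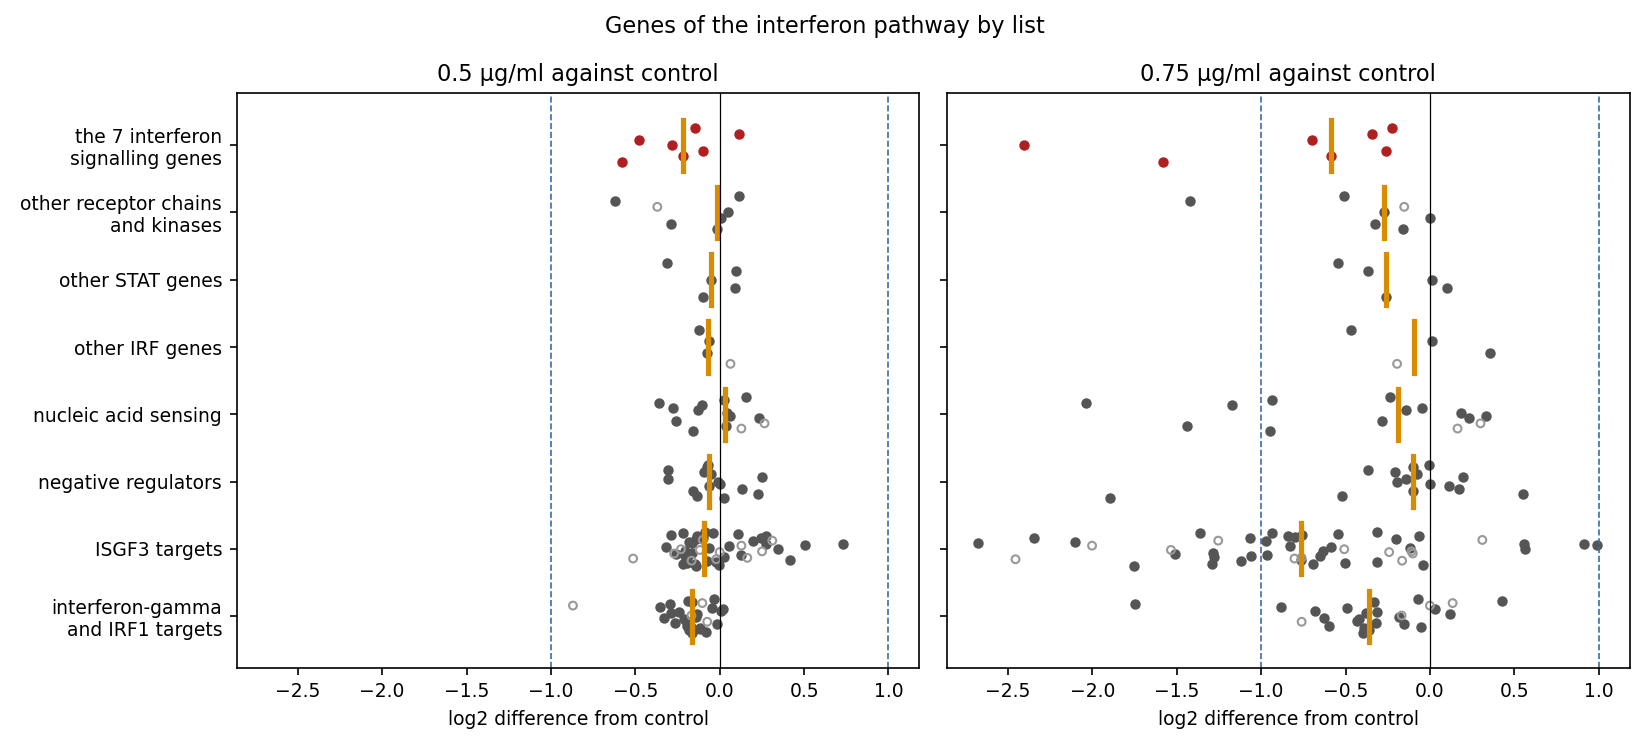
Log2 difference from the control for each measured gene of the interferon pathway, by list, at 0.5 µg/ml (left) and 0.75 µg/ml (right). Filled points have at least 1 array above the background level, open points none, orange bars are list medians and dashed lines mark 2-fold. The ISGF3 targets have medians of -0.09 and -0.76, the interferon-gamma and IRF1 targets -0.17 and -0.36, and the 7 members -0.22 and -0.58.

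In the same promoter windows, 16 of 38 ISGF3 targets (42.1%) and 10 of 20 interferon-gamma and IRF1 targets with a promoter in the table had the ISRE letters. GAS letters were in 8 of the 38 and 6 of the 20. Of all measured genes with a promoter, 3.94% had the ISRE letters and 9.02% the GAS letters. Both lists were chosen with earlier results of these data known, so these shares are no test of them. Stat2, with its ISRE match, and Irf7, with none, were both at least 2-fold lower at 0.75 µg/ml.

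IRF7 and IRF8 are abundant in plasmacytoid dendritic cells, and IRF8 also in B cells and other dendritic cells, so markers of those cells are given beside them. In bulk RNA, fewer cells of a type and less RNA per cell cannot be told apart. All 7 measured CD8 T cell markers were above the background level on each array, with summed intensities of 17027, 17248 and 15267. Of 7 plasmacytoid markers, 5, Siglech among them, were under the background level on all 3 arrays. The sum of the 7 was 527, 508 and 407, most of it from Tcf4, at 258, 263 and 188, and Pacsin1, at 133, 127 and 73.6.

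Of 8 dendritic cell markers, 6 were under the background level on every array. The other two, Batf3 and the homing receptor gene Ccr7, are also expressed by T cells. The list's sum of 3155, 2551 and 2202 was mostly Ccr7, at 2635, 2021 and 1604, while Batf3 was at 420.4, 424 and 487. The list's median was 16.5, 20.2 and 19.3, and that of the plasmacytoid list 23.4, 32.1 and 34.5. These medians lie under the background level, so no direction is read from them. Each of the 7 macrophage or monocyte markers was under the background level on every array, with sums of 146, 157 and 152. Of 6 B cell markers, Cd79b alone passed it on any array, at 111, 100.3 and 105, and their sums were 265, 253 and 231. The sums of the CD8 T cell, plasmacytoid, dendritic and B cell lists were lowest at 0.75 µg/ml, as the members were. The B cell sum includes markers under the background level, and Cd79b was lowest at 0.5 µg/ml. Sums not lowest at 0.75 µg/ml were those of the macrophage or monocyte list, of CD4 T cell markers, at 250, 285.5 and 255, and of NK cell markers, at 72.2, 68.4 and 76.6. All measured NK cell markers were under the background level. The part of any of these cells in the members' differences was not tested.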

How the data were processed

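Total RNA from 3 cultures received a biotin label in a whole-transcript, sense-target procedure and was hybridised to 1 array each, per the labels' protocols. The deposited table holds 1 linear intensity per probe set and array. Its software and normalization: not given in the sources used here. Array medians were 32.4 to 33.0, and no further normalization was applied.

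Log2 was taken of each deposited intensity. Of 22206 transcript probe sets, 19572 had 1 gene symbol, 0 had several and 2634 are unnamed here. The brightest probe set stood for a gene. Genes were kept at a mean log2 value of at least the median over all 28846 probe sets, 5.02. A difference was called at 2-fold. The 95th percentile of the 5222 negative controls was taken per array and the highest of these, 102, served as background. Where 1 of the values lay under it, the fold is a lower bound with the dim value raised to it, and where both did none is given.

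Genes other than the 7 were named by rule: the 4 with the largest difference at 0.75 µg/ml in each list among those with at least 1 array above that level, 9 fixed genes, and the 3 nearest in pattern to each member. Exceptions are marked. The members and lists were chosen with earlier results of these data known, and the promoter motifs after the data were seen. The 2-fold call at 0.75 µg/ml against the control was tested on simulated data, and the other steps were not. Python 3.11.15, numpy 2.4.6, pandas 2.3.3 and matplotlib 3.10.9 were used.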

Additional observations from a re-analysis of the deposited data

How the results depend on the processing

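Under 3 other scalings, every member kept its direction in all 3 comparisons. The log2(value + 50) setting keeps the order of any 2 values, so it could change no direction. Each member has 1 probe set and Irf7 alone has a value under background, so averaging probe sets could change no member and raising dim values only Irf7. At 0.75 µg/ml against the control, Irf7 ranged from -2.44 to -1.93 and Stat2 from -1.62 to -1.43. A value was taken as moved when it differed by more than the positive controls' SD of 0.30 or 0.31, and of the 86 member values that a setting could change 2 did, both of Irf7 with log2(value + 50), at -1.93 against the control and -1.68 between the doses. Members at least 2-fold lower between the doses numbered 1 under quantile normalization and 1 with log2(value + 50). Scalings shifted the median of all genes by less than 0.1. The largest such shift was -0.039 and the smallest member difference was -0.083, so the scalings put the directions to little test.

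Raising dim values to the background level left 1 gene lower and 2 higher at 0.5 µg/ml, 98 and 15 at 0.75 µg/ml, and 75 and 12 between the doses, in place of 6 and 10, 172 and 39, and 130 and 44. The log2(value + 50) counts were 1 and 0, 91 and 12, and 52 and 10. Without the level filter 29 genes were lower and 25 higher at 0.5 µg/ml, 82 were higher at 0.75 µg/ml and 76 between the doses. With at least 1 array above background, the same counts were 2, 3, 24 and 26. At 1.5-fold, 109 genes were lower and 103 higher at 0.5 µg/ml, 498 and 277 at 0.75 µg/ml, and 407 and 197 between the doses. ISGF3 targets at least 2-fold lower against the control and between the doses numbered 16 and 18, 9 and 10 with raised values and 7 and 6 with log2(value + 50), and 30 were lower against the control at 1.5-fold. No paired analysis was possible because each condition has 1 array.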
